A study of Homo sapiens with 10 samples.

Results

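The comparison described here set InsE, a derivative of the GIST-T1 cell line with a disrupted CTCF insulator, against the unedited control across all expressed genes. GIST-T1 is an established human line from a metastatic gastrointestinal stromal tumour (GIST). The members were the libraries labelled InsE or control: 4 of the 10 libraries of the series, 2 per group. The control carries the genotype label WT, and the other 6 libraries belong to 3 further insulator lines, InsF, InsG and InsH, with 2 libraries each. All were made from polyadenylated RNA of GIST-T1 cells grown in serum. The labels do not say which bases were edited in InsE, whether InsE is 1 clone, or whether its 2 libraries came from separate cultures. The p-values therefore reflect no more than library-to-library spread, part or all of it possibly technical, and an effect of the edit cannot be told apart from other differences between the lines.

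CTCF binds DNA and, with cohesin, marks the boundaries of many chromosome loops, and an insulator is a boundary that keeps an enhancer of a region away from genes beyond it. GISTs arise from the lineage of the interstitial cells of Cajal, the pacemaker cells of the gut wall, and most depend on the receptor tyrosine kinase KIT. The gene groups below reach beyond the FGF3 locus, and FGF3 served only as a check of the labels. Neighbours within 2 Mb stayed in the list counts, among them ANO1 and CCND1.

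The control libraries held 30.8 and 20.1 M expected counts, the read numbers assigned to each gene, and the InsE libraries held 31.0 and 9.4 M. A count of 0 was read as up to 3 counts, which is 0.0968 to 0.319 CPM (a count scaled by library size) in these libraries and covers counting error only. FGF3 had 0 counts in both control libraries and 1141 and 341 in InsE, at least 285-fold higher against a floor of 3 counts in each library. The control libraries differed from each other by little more than sampling noise (chi-square per degree of freedom 1.32, against 7.43 between the InsE libraries), so counts with both summed into 1 sample are given as well. The replicate differences of InsE correlated with those of the other lines at 0.588 to 0.651 across 12167 genes and with that of the control at 0.043, and both control libraries lay near replicate 2 of the lines on this axis. Mitochondrial transcripts made up 4.19% and 4.13% of counts in the control and 4.66% and 4.67% in InsE. Of the markers of other cell types, all 6 neural ones stood at 0 TPM (a level scaled by library size and transcript length), PECAM1 and PTPRC too, and the summed level was 0.21 to 0.25 TPM for endothelial and 0.59 to 1.07 for leukocyte markers. Summed fibroblast markers stood at 1273 and 1287 TPM in the control and 1433 and 1338 in InsE, with 2 of 6 tested members higher (DCN and LUM), while PDGFRA (-0.20) and THY1 (-0.40) were called lower in the full fit and did not hold. Summed epithelial markers, almost all KRT18 and KRT8, stood at 268 and 278 TPM in the control and 194 and 211 in InsE, with CDH1 and KRT19 at 0. The 6 smooth muscle markers summed to 4.82 to 5.67 TPM, with DES and CNN1 at 0.

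The tests ran over 15554 genes in an edgeR fit of all 10 libraries. In that fit 3611 genes (23.2%) differed between InsE and control at a Benjamini-Hochberg adjusted p under 0.05, with 1675 higher in InsE (10.8%) and 1936 lower (12.4%). Fits that left out 1 library called between 1405 genes (without control replicate 1) and 2654 (without InsE replicate 2). A call is therefore said to hold where the gene passed in the same direction in the full fit and in each of the 4 fits without 1 control or InsE library. On this rule 1206 genes held (7.75%), with 453 higher (2.91%) and 753 lower (4.84%). Of the 1206, 260 changed at least 2-fold, 107 upwards and 153 downwards. "Rose" and "fell" are used below only of genes that held. All changes are log2 differences of InsE from control on the count scale, and the median over all genes tested was 0.01. The standard error (SE) given with them is the change divided by the square root of edgeR's quasi-likelihood F statistic. It thus restates the test and is no separate estimate. With library sizes alone in place of TMM scaling, 636 genes held higher and 630 lower. Where the control libraries are summed, no control could be left out, so holding asked only for the fits without 1 InsE library. With the control libraries summed 551 held, 184 higher and 367 lower.

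Transcript length moved with the difference. Genes in the shortest quartile of mean transcript length (up to 1414 bases) lay at a median of +0.12 and those in the longest quartile (from 3474 bases) at -0.14. In the longest quartile 500 of 3889 genes fell (12.9%) and 86 rose, while in the shortest 36 fell (0.926%) and 99 rose. Both InsE libraries showed this, with longest-quartile medians of -0.12 in replicate 1 and -0.17 in replicate 2. In InsF, InsG and InsH they ran from -0.11 to -0.01. Against the mean of those 3 lines InsE still lay at -0.08 in the longest quartile and +0.07 in the shortest. The part of length in single genes was not tested, but each list below is also given from a fit with each library's smooth trend against length removed, an alternative added after these values were seen. In that fit 844 genes held, 381 higher and 463 lower, and 733 of the 1206 were among them.

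**Figure D1:**
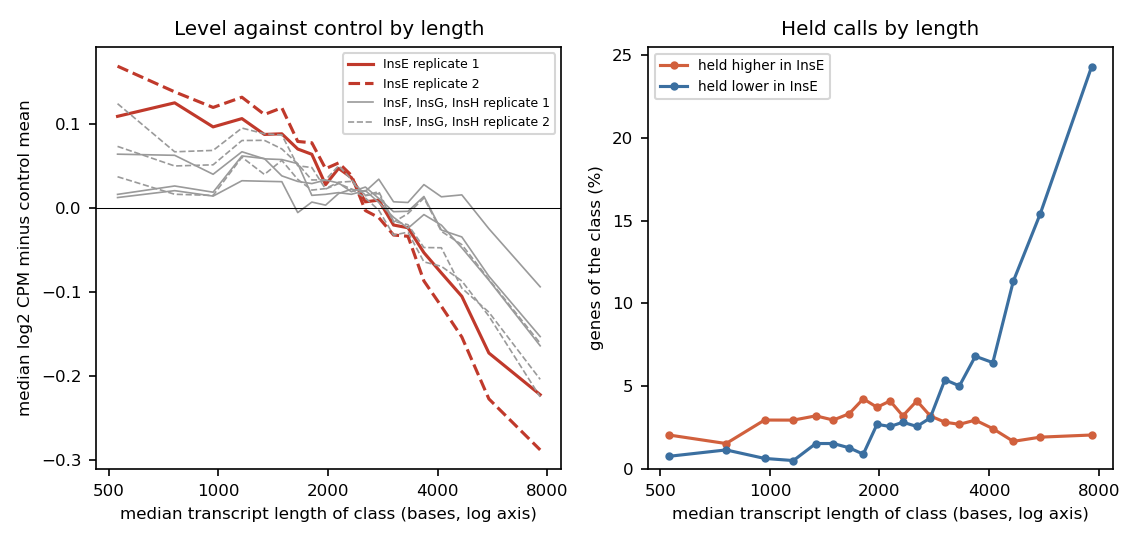
Left, median log2 CPM of 20 equal classes of transcript length, as difference from the control mean, for each line library. Right, percent of each class that held higher or lower in InsE. The InsE lines fall from above 0 in short genes to below -0.2 in the longest class, where 24.3% of genes held lower.

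Among protein-coding genes beyond the FGF3 locus with a mean log2 CPM of at least 1 and no overlap, PDZRN4 rose most and PRSS35 fell most. PDZRN4, which encodes a protein with PDZ and RING domains, had 0.27 and 0.11 TPM in the control libraries and 1.67 and 2.08 in InsE. It rose by 3.17 ± 0.41 (log2 ± SE, adjusted p = 0.000635). POSTN, the matrix protein periostin, had 0.46 and 0.60 TPM in the control and 3.99 and 4.06 in InsE and rose by 3.10 ± 0.17 (adjusted p = 5.5e-06). TMEM119 went from 3.21 and 3.23 TPM to 14.2 and 14.7, a rise of 2.14 ± 0.11. MAOB, the mitochondrial enzyme monoamine oxidase B, went from 1.07 and 1.09 TPM to 5.37 and 5.91 and rose by 2.35 ± 0.13. In each of these genes both InsE libraries lay above both control libraries, as 2 libraries against 2 do for many genes: 65.3% of all genes tested showed no overlap. In bulk RNA, fewer cells expressing a gene and less RNA per cell cannot be told apart. The other 6 of the 10 largest rises were ZNF529 (2.64), CAPN6 (2.5), AGMO (2.26), PSTPIP1 (2.24), CDK15 (2.14) and HPSE2 (2.05). PDZRN4, POSTN, ZNF529, CAPN6, AGMO and HPSE2 stood below 1 TPM in both control libraries. In InsF, InsG and InsH the mean was 2.34 TPM for PDZRN4, 7.93 for POSTN, 17.7 for TMEM119 and 7.84 for MAOB. It was 0.75 for ZNF529, 7.53 for CAPN6, 4.38 for AGMO, 18.6 for PSTPIP1, 3.87 for CDK15 and 3.51 for HPSE2. On these means each gene but ZNF529 stood higher there than in InsE. That difference held for POSTN, CAPN6, PSTPIP1 and HPSE2.

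MMP1, the interstitial collagenase, fell from 30.3 and 32.6 TPM in the control libraries to 2.67 and 3.36 in InsE, by 3.45 ± 0.14 (adjusted p = 1.6e-06). ECM1, a secreted matrix protein, fell from 26.7 and 28.5 TPM to 4.01 and 3.88, by 2.92 ± 0.13. TNC, the matrix protein tenascin C, fell from 1.85 and 2.14 TPM to 0.29 and 0.37, by 3.06 ± 0.15. MOXD1 fell by 2.32 ± 0.09, from 17.3 and 17.9 TPM to 3.65 and 3.38. These genes likewise showed no overlap between the groups. DSP, which encodes desmoplakin of the desmosome, fell by 3.28 ± 0.22 from 1.22 TPM in both control libraries to 0.15 and 0.08. PRSS35, a serine protease family member, fell from 2.10 and 2.17 TPM to 0.09 and 0, with 4 counts in InsE replicate 1 and 0 in replicate 2. The other 4 of the 10 largest falls were RP11-435I10.4 (-4.35), GBP2 (-2.86), CNTNAP2 (-2.68) and SLIT3 (-2.60). All 20 genes also held in the fit with the length trend removed and with the control libraries summed.

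**Figure D2:**
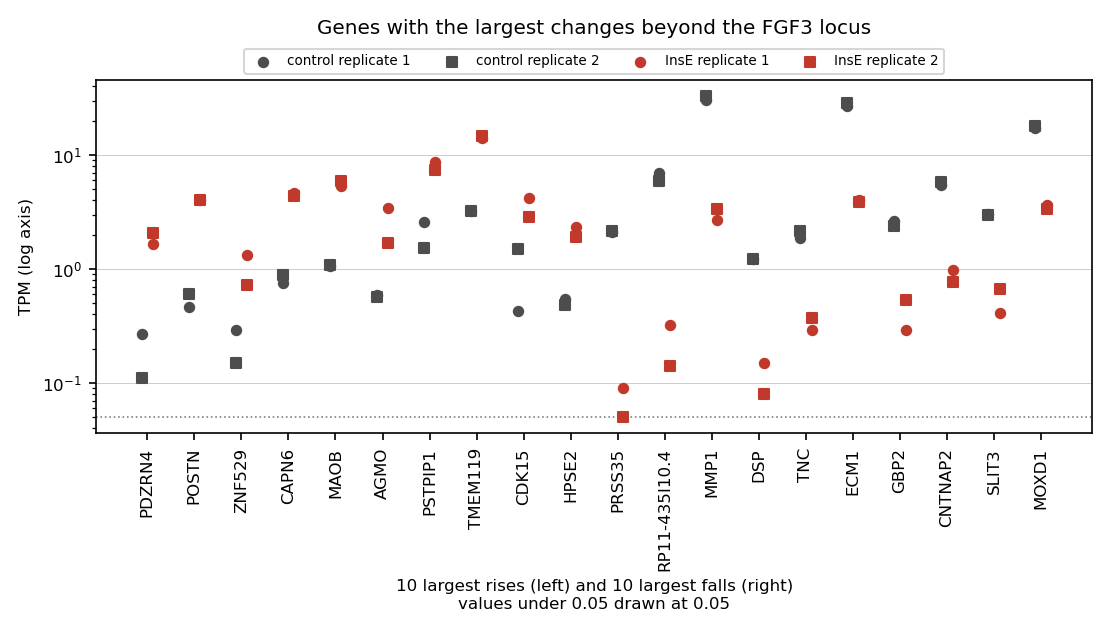
TPM on a log axis in each control and InsE library for the 10 largest rises (left) and 10 largest falls (right) beyond the FGF3 locus. In each gene the 2 InsE libraries lie on the same side of both control libraries.

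Of 46 tested interferon-stimulated genes 13 fell in InsE. These genes answer type I and II interferon, and many act against viruses. A complex that holds IRF9 binds the interferon-stimulated response element (ISRE), searched here as TTTC, any 2 bases, TTTC on both strands of RefSeq promoters (250 bases before to 50 after the start, GRCh38.p14). Of the list's 46 tested genes 38 had a promoter in that table, and 24 of these (63.2%) held the motif, against 2.78% of the promoters of all genes tested. Among the 11 members with a promoter that fell, 8 held it (72.7%), and IFIT1, which rose, held it too. A match describes the letters only. The search allowed no mismatch, so a promoter without a match lacked only this exact spelling within the window. Of the 4 antigen presentation genes that fell and had a promoter, TAP1 held the motif and HLA-B, HLA-C and PSMB9 did not, against 9 of 16 tested (56.2%). The sites are shown for IFIT1 and for 4 genes that fell, among them TAP1 of the antigen presentation list, with 10 bases on either side, 5′ to 3′ on the gene's strand and the motif or its reverse complement in capitals.
IFIT1, chr10:89392497-89392526, plus strand: ctagctttagTTTCACTTTCccctttcggt
IFIT1, chr10:89392510-89392539, plus strand: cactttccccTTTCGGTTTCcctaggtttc
OAS3, chr12:112938321-112938350, plus strand: agaaagaaacGAAACTGAAAgcagggaatt
OAS3, chr12:112938452-112938481, plus strand: agccgggcggGAAAACGAAAccagaaatcc
HERC5, chr4:88457035-88457064, plus strand: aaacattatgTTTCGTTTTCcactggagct
GBP3, chr1:89022845-89022874, minus strand: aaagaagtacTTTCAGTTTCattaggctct
TAP1, chr6:32853819-32853848, minus strand: aggcggccgcTTTCGATTTCgctttcccct
HERC5 held 2 further matches that overlap each other, and TAP1 held 1 that overlaps the site shown. The GAS motif TTCNNNGAA was in 4 of the 11 (36.4%), in 10 of the list's 38 promoters (26.3%) and in 6.24% of all tested promoters. Among the promoters of all genes that fell it was in 5.1%.

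Of the 46 genes 13 fell, 1 rose and 32 did not hold, 28.3% lower beside 4.84% of all genes, and the median was -0.57. The median difference from the control mean was -0.52 in InsE replicate 1 and -0.57 in replicate 2. OAS3, a sensor of double-stranded RNA, stood at 7.64 and 8.51 TPM in the control and at 3.15 and 3.06 in InsE and fell by 1.61 ± 0.08 (adjusted p = 3.5e-06). HERC5, the ligase that attaches ISG15 to proteins, stood at 13.0 and 13.4 TPM in the control and 4.76 and 4.19 in InsE and fell by 1.5 ± 0.08. GBP2 and GBP3, guanylate-binding proteins, fell by 2.86 ± 0.22 (2.64 and 2.40 TPM to 0.29 and 0.53) and by 1.48 ± 0.13 (7.36 and 6.30 TPM to 2.48 and 1.82). In all 4 the InsE libraries lay below both control libraries. Named after their values were seen, others that fell were GBP1, CMPK2, IRF9, DTX3L, IFIT3, PARP14, PARP9 and PLSCR1, by 0.54 to 1.02. IRF9 went from 38.2 and 33.3 TPM to 17.6 and 16.2. PARP9 and DTX3L start 339 bases apart on opposite strands and overlap, so reads of the shared stretch cannot be told apart. IFIT1, which binds viral RNA ends, went the other way, from 13.3 and 13.1 TPM to 20.9 and 19.4 (a rise of 0.63 ± 0.08). The list had 13 lower with the length trend removed, 10 lower with the control libraries summed and, by limma on log2(TPM + 1), 5.

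HLA class I molecules show peptides from inside the cell at its surface. Of 21 tested members of the HLA class I and antigen presentation list 5 fell and 0 rose in edgeR (0 higher and 11 lower at an unadjusted p under 0.05), and the median was -0.26. The share that fell was 23.8%, beside 4.84% of all genes. HLA-C stood at 16.7 and 14.8 TPM in the control and 3.80 and 3.99 in InsE and fell by 2.08 ± 0.14 (adjusted p = 1.7e-05). HLA-B fell from 7.78 and 9.02 TPM to 1.68 and 2.14, by 2.23 ± 0.30. HLA-B and HLA-C are near-identical genes, so their split of reads is uncertain. TAP1, a subunit of the peptide transporter, fell from 3.07 and 2.91 TPM to 0.91 and 0.52, by 1.82 ± 0.17. PSMB9, an immunoproteasome subunit, fell by 2.09 ± 0.32 from 3.72 and 3.18 TPM to 0.78 and 0.54. TAP1 and PSMB9 overlap on opposite strands, so reads of the shared stretch cannot be told apart. NLRC5, the activator of class I genes, fell by 1.84 ± 0.26 from 3.66 and 4.15 TPM to 1.18 and 2.07. All 5 held with the length trend removed, and with the control libraries summed 3 held. Against InsF, InsG and InsH, InsE was lower for 19 interferon-stimulated genes and 9 of the antigen presentation list and higher for 0 in edgeR.

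**Figure D3:**
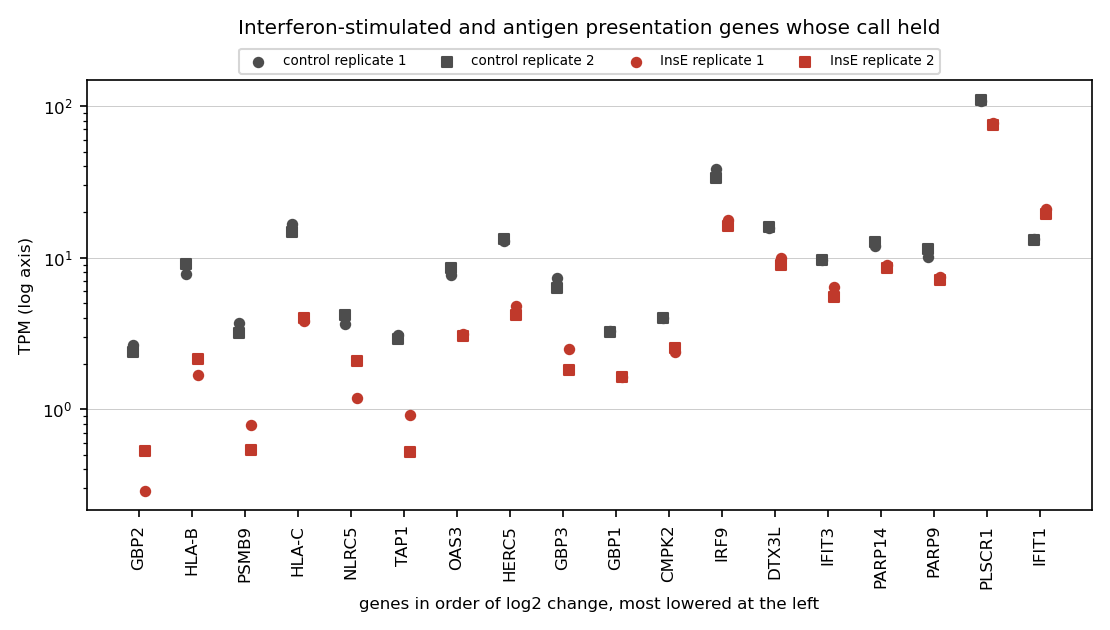
TPM on a log axis in each control and InsE library for 18 interferon-stimulated and antigen presentation genes whose call held. In 17 of them both InsE libraries lie below both control libraries, and in IFIT1 both lie above.

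Of 20 tested genes that mark GIST and the interstitial cells of Cajal, 9 fell, 1 rose and 10 did not hold. These shares were 45% lower and 5% higher, beside 4.84% and 2.91% of all genes. KIT, the receptor that drives most GISTs, stood at 724 and 716 TPM in the control libraries and at 388 and 344 in InsE and fell by 0.95 ± 0.06 (adjusted p = 1e-05). The median of the list was -0.36 (-0.41 in InsE replicate 1 and -0.37 in replicate 2). Against InsF, InsG and InsH it was -0.15, with 7 members held lower and 2 higher. NTM, an adhesion molecule, fell from 8.27 and 9.42 TPM to 3.32 and 3.91 (adjusted p = 6.2e-05), and KCNK3, a potassium channel, fell from 3.93 and 3.92 TPM to 2.0 and 2.11, by 0.98 ± 0.10. BARX1, a homeobox factor of the stomach wall, fell by 0.69 ± 0.09 from 19.4 and 20.7 TPM to 12.6 and 10.8. The kinase PRKCQ fell by 0.55 ± 0.09, the factor HAND1 by 0.43 ± 0.07 and the receptor GPR20 by 0.43 ± 0.05. ANO1, the chloride channel known as DOG1, fell by 0.84 ± 0.06 but lies within 2 Mb of FGF3. LIX1 rose by 1.82 ± 0.17, from 1.45 and 1.75 TPM to 4.71 in both InsE libraries. Of the 8 marker genes fixed for this cell type 5 fell, ANO1 among them, while ETV1, CD34 and FOXF1 did not hold. Against the other lines 2 of the 8 held lower and 0 higher in edgeR. CD34 stood at 1706 and 1710 TPM in the control and 1516 and 1550 in InsE. The list had 9 lower with the length trend removed, 6 with the control libraries summed and 5 with limma on log2(TPM + 1). KIT and KCNK3 belong to the longest quartile of length and held with the trend removed.

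In KIT and PI3K signalling 3 of 19 tested members fell and 0 rose in edgeR (1 was higher at an unadjusted p under 0.05). That is 15.8% lower, beside 4.84% of all genes, and 12 of the 19 lie in the longest quartile of length. SOCS2, a feedback inhibitor of cytokine signalling, fell by 1.22 ± 0.16 from 11.6 and 11.8 TPM to 4.89 and 4.17. IRS1, an adaptor of insulin receptor signalling, fell by 1.22 ± 0.14, and KITLG, the ligand of KIT, by 0.80 ± 0.16 from 11.2 and 11.5 TPM to 7.21 and 5.37. After removal of the length trend 1 of the list held lower, and IRS1 (-0.92) and KITLG (-0.62) did not hold but passed the fit of all libraries. Among 16 genes of ERK feedback and output, SPRY2 rose by 1.00 ± 0.06, from 154 and 149 TPM to 320 and 286, and ETV5 fell by 0.26 ± 0.04. With the length trend removed ETV5 lay at -0.23 and passed the fit of all libraries but did not hold. The other that rose, CCND1, lies within 2 Mb of FGF3. SPRY2 encodes a feedback inhibitor of ERK signalling. Of 17 immediate early genes, which answer growth signals within minutes, 4 rose and 0 fell in edgeR (3 were lower at an unadjusted p under 0.05), at a median of 0.33. IER2 rose by 0.64 ± 0.09 (31.7 and 29.2 TPM to 45.4 and 49.7), NR4A1 by 0.61 ± 0.12, BTG2 by 0.50 ± 0.06 and JUN by 0.48 ± 0.08. Of these, 3 held with the length trend removed and with the control libraries summed 2. The shares that rose were 23.5% of this list and 12.5% of the ERK list, beside 2.91% of all genes. In the ERK list 6.25% fell.

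Genes of the basement membrane, the matrix sheet of laminin and type IV collagen under many cells, had the largest share of falls among the 46 lists in the fit of deposited counts, though not with the length trend removed, where the GIST list had a larger one. The lists were chosen with earlier results of these data known, so this ranking only describes them. Of 17 tested laminin and basement membrane genes 10 fell and 0 rose in edgeR (0 were higher at an unadjusted p under 0.05), and the median was -0.42. The share that fell was 58.8%, beside 4.84% of all genes and 12.9% of those in the longest quartile of length. HMCN1 fell by 0.92 ± 0.05 (86.8 and 97.4 TPM to 64.7 and 73.0), HSPG2, the proteoglycan perlecan, by 0.88 ± 0.09 and LAMC3 by 0.84 ± 0.14. LAMA4 fell by 3.56 ± 0.47 from 1.05 and 0.83 TPM to 0.12 and 0.36. Length moved with this list: 13 of the 17 belong to the longest quartile, and with the length trend removed 5 held lower. The deposited mean transcript length of HSPG2 was 9146 and 9871 bases in the control and 6839 and 6028 in InsE, and in TPM, which divides by it, the gene went from 14.6 and 13.7 to 10.4 and 12.8. Limma on log2(TPM + 1) had 1 of the list lower, and the control libraries summed gave 6.

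Of 26 tested collagen chains 6 fell and 1 rose, at a median of -0.07. These were 23.1% and 3.85%, beside 4.84% and 2.91% of all genes, and 19 of the 26 lie in the longest quartile. COL4A1 and COL4A2, the main chains of type IV collagen, overlap at their starts, 1421 bases apart on opposite strands of chromosome 13 (110148963 to 110307233 and 110305812 to 110513209, hg38) and both fell by 0.94. COL4A1 stood at 83.4 and 83.8 TPM in the control and 43.2 and 44.8 in InsE, and COL4A2 at 47.6 and 47.9 and at 24.3 and 26.8. After removal of the length trend COL4A1 held and COL4A2 did not, and the list had 2 lower. The changes there were -0.71 for COL4A1 and -0.73 for COL4A2, and both passed the fit of all libraries. COL4A4 fell by 1.20 ± 0.21 and COL5A3, at 0.26 and 0.24 TPM in the control, by 3.07 ± 0.52, while COL5A2 rose by 0.47 ± 0.08. Matrix glycoproteins and proteoglycans moved both ways, with 9 of 37 lower (24.3%) and 5 higher (13.5%). Beside ECM1 and TNC, FBN1, the microfibril protein fibrillin-1, fell by 1.02 ± 0.04 from 165 and 164 TPM to 102 and 93.3, and WISP1 by 1.32 ± 0.10. Beside POSTN, the small proteoglycans LUM and DCN rose by 0.70 ± 0.09 (423 and 420 TPM to 850 and 706) and by 1.41 ± 0.15 (1.42 and 1.67 TPM to 3.42 and 2.53). THBS3 rose by 0.84 ± 0.14. With the length trend removed the list had 8 lower and 3 higher. DCN did not hold there, though its change of 1.32 passed the fit of all libraries.

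Among 26 matrix proteases and inhibitors 6 fell (23.1%) and 1 rose (3.85%), beside 4.84% and 2.91% of all genes. MMP10 had 0 counts in both InsE libraries against 1.11 and 0.83 TPM in the control, at least 4.95-fold lower against a floor of 3 counts in each library. TIMP1, an inhibitor of these proteases, fell by 1.58 ± 0.09 from 81.8 and 83.5 TPM to 28.2 and 27.9. SERPINE2 fell by 1.13 ± 0.12 and ADAMTS4 rose by 0.65 ± 0.09. Of 18 integrins, the receptors that bind matrix, 2 fell and 1 rose: ITGA4 fell by 1.24 ± 0.08 from 63.7 and 65.9 TPM to 29.7 and 26.1, ITGB5 fell by 0.46 ± 0.05 and ITGA9 rose by 0.33 ± 0.06. Of 13 cadherins 4 fell and 0 rose in edgeR (1 was higher at an unadjusted p under 0.05), namely FAT1 (-0.84), CDH2 (-0.48), DCHS2 (-0.39) and CDH11 (-0.38). DCHS2 lost its call with the length trend removed (adjusted p over 0.05), and the summed control left 2 of the list. Of 16 desmosome and junction genes DSP and TJP1 fell and F11R rose. Of 39 clustered protocadherins, whose shared exons make the split of reads uncertain, PCDHGA3 and PCDHGB7 fell and PCDHB16 rose. The protocadherin shares, 5.13% lower and 2.56% higher, lay near those of all genes, 4.84% and 2.91%. Shares lower were 11.1% of integrins, 30.8% of cadherins and 12.5% of junction genes. Those higher were 5.56%, 0% and 6.25%.

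Genes of axon guidance, whose secreted and membrane cues also steer cells outside the nervous system, fell in 10 of 52 tested cases and rose in 0 in edgeR (6 were higher at an unadjusted p under 0.05). SLIT3, a secreted ligand of ROBO receptors, stood at 3.02 and 2.99 TPM in the control and 0.41 and 0.67 in InsE and fell by 2.60 ± 0.22. SEMA3D, a secreted semaphorin, fell by 1.75 ± 0.16 from 6.03 and 6.12 TPM to 1.89 and 1.56. NTN1, the ligand netrin-1, fell by 0.86 ± 0.09 from 13.5 and 14.3 TPM to 7.50 and 7.68, and the ephrin receptor EPHB1 by 1.44 ± 0.20. With the length trend removed 7 held lower, and with the control libraries summed 6. In the fit of deposited counts 19.2% of the list fell, beside 4.84% of all genes. Of 28 genes of neuronal adhesion and synapses 3 fell (10.7%) and 2 rose (7.14%), the latter beside 2.91% of all genes. CNTNAP2, a neurexin family member, fell from 5.50 and 5.79 TPM to 0.97 and 0.77, and NCAM1 fell by 0.78 ± 0.08. SLITRK6 rose by 1.63 ± 0.10 from 5.41 and 5.11 TPM to 16.0 and 14.6. NCAM2 rose by 0.76 ± 0.12 on counts, while its TPM overlapped (1.88 and 5.35 in the control, 4.40 and 5.04 in InsE).

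Among 26 receptor tyrosine kinases 5 fell (19.2%) and 1 rose (3.85%), beside 4.84% and 2.91% of all genes. EGFR fell by 0.81 ± 0.06 from 10.2 and 9.68 TPM to 5.92 and 5.82, EPHA3 by 0.55 ± 0.10 and TYRO3 by 0.46 ± 0.08, while the collagen receptor DDR2 rose by 0.87 ± 0.08. With the length trend removed 3 of the list held lower, and with the control libraries summed 2. In the Hedgehog and Notch pathways 5 of 28 fell (17.9%) and 1 rose (3.57%), at a median of -0.40. DLL1, a Notch ligand, fell by 1.49 ± 0.19 from 4.09 and 3.93 TPM to 1.55 and 1.12. PTCH1, the Hedgehog receptor and itself a target of the pathway, fell by 0.99 ± 0.07 from 21.8 and 20.5 TPM to 13.2 and 12.7. NOTCH2, which has near-identical partial copies that make its count uncertain, fell by 0.89 ± 0.11 and the coactivator MAML2 by 0.73 ± 0.06, and the coreceptor CDON rose by 0.46 ± 0.07. The list had 3 lower with the length trend removed and 5 with the control libraries summed. In the WNT list 5 of 38 fell (13.2%) and 1 rose (2.63%). The secreted inhibitors DKK2 and DKK4 fell by 1.01 ± 0.11 and 0.82 ± 0.07 (DKK4 from 63.4 and 61.2 TPM to 34.9 and 36.1), as did the receptors FZD1 (-0.78) and FZD6 (-0.61), and the inhibitor SFRP4 rose by 1.14 ± 0.15. With the length trend removed 3 of the list held lower and 3 higher. In the TGF-beta and BMP list 5 of 38 fell (13.2%) and 1 rose (2.63%). The ligands GDF11 and GDF10 fell by 0.80 ± 0.06 and 0.64 ± 0.07, and BMP7 rose by 1.74 ± 0.26 from 0.95 and 0.84 TPM to 2.16 and 4.25. SMAD3 and LTBP1 fell by 0.56 ± 0.09 and 0.89 ± 0.12. With the length trend removed they lay at -0.39 and -0.73, passed the fit of all libraries and did not hold, and the list had 3 lower and 2 higher. In the longest quartile of length 12.9% of all genes fell. It held 16 of the 26 kinases, 13 of the 28 Hedgehog and Notch genes, 20 of the WNT list and 20 of the TGF-beta list. Against InsF, InsG and InsH the medians of these 4 lists were -0.33, -0.05, 0.01 and -0.10, in that order.

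In the list of amino acid genes and targets of ATF4, the factor of the amino acid response, 5 of 39 tested members rose and 1 fell. The share that rose was 12.8%, beside 2.91% of all genes, and the median was 0.13. ASNS, asparagine synthetase, rose by 0.61 ± 0.06 from 123 and 121 TPM to 195 and 184. PHGDH, the first enzyme of serine synthesis, rose by 0.64 ± 0.05 from 97.6 and 97.5 TPM to 139 and 156. CEBPB, a partner factor, rose by 0.85 ± 0.07 from 15.0 and 15.6 TPM to 27.5 in both, and the amino acid carrier SLC38A1 fell by 0.39 ± 0.07. The list also counts DDR2, a collagen receptor, among those that rose. The list had 5 higher with the length trend removed and 4 with the control libraries summed, and none lower in either. SLC38A1 lost its call with the length trend removed (-0.14, adjusted p = 0.097 in edgeR). Of 23 endoplasmic reticulum genes 4 rose and 2 fell: SDF2L1 (0.59), DNAJC3 (0.52), HERPUD1 (0.46) and XBP1 (0.45) rose, and SEL1L (-0.45) and ATF6 (-0.32) fell. With the control libraries summed 1 of them held, and with the length trend removed 2, where ATF6 lost its call (-0.05). VEGFA rose by 0.70 ± 0.08 and GAPDH fell by 0.28 ± 0.04, the only held genes of 37 in glycolysis and hypoxia. Each was 2.70% of that list, beside 2.91% of all genes higher and 4.84% lower. HMOX1, heme oxygenase, rose by 0.93 ± 0.12 and was the 1 held gene of 24 in the oxidative stress list (4.17%). The endoplasmic reticulum shares were 17.4% higher and 8.7% lower.

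Against control 2 of 24 cholesterol genes rose (INSIG1 by 0.49 ± 0.06 and ACAT2 by 0.36 ± 0.07) and 1 fell, at a median of 0.12. These were 8.33% and 4.17%, beside 2.91% and 4.84% of all genes. Against InsF, InsG and InsH, a comparison that uses no control library, 17 of the 24 held higher in InsE and none lower, at a median of 0.50, beside 3.72% of all genes higher and 4.92% lower. With the control libraries summed no cholesterol gene held against control. SREBF1, a factor that drives lipid synthesis, rose by 0.44 ± 0.06 from 61.3 and 58.3 TPM to 82.0 and 84.5, while ACACA and ELOVL4 fell, the 3 held members of 23 in the fatty acid list. ACACA lost its call with the length trend removed (-0.16, adjusted p = 0.068 in edgeR). Of the 13 mitochondrial-encoded genes, which have copies in the nuclear genome, MT-ND4 rose by 0.29 ± 0.04 and MT-ND3 fell by 0.26 ± 0.04 against control, and 9 of 13 held higher in InsE than in the other lines. Nuclear respiratory chain genes had 2 of 75 higher (NDUFA2 and ATP5G1) at a median of 0.11. Ribosomal protein genes, whose many pseudogenes make counts uncertain, had 2 of 78 (RPL13 and RPS24) at 0.10. These shares, 2.67% and 2.56%, lay near the 2.91% of all genes that held higher. Length moved with both lists, since 63 of the 75 and all 78 lie in the shortest quartile, and with the trend removed none held in either and the medians were -0.02 and -0.03. With library sizes alone 5 and 8 held higher.

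Genes of cell division showed few held calls, as did all genes tested (2.91% higher and 4.84% lower). Of 43 DNA replication genes RFC4 rose by 0.32 ± 0.05 and RRM2, a subunit of ribonucleotide reductase, fell by 0.55 ± 0.05 from 320 and 339 TPM to 241 and 214. Each was 2.33% of the list. Of 47 mitosis genes only MKI67 held, lower by 0.40 ± 0.05, and its call was lost with the length trend removed, as was that of RPS24. Of 18 G1 genes 3 rose, CCND2 by 0.64 ± 0.05 (76.0 and 72.0 TPM to 111 and 112), the inhibitor CDKN2D by 0.87 ± 0.16 and CCND1, and 0 fell in edgeR (2 were lower at an unadjusted p under 0.05). Among 25 p53 targets GDF15 rose by 1.23 ± 0.23 and AEN fell by 0.52 ± 0.08, each 4% of that list. Of 20 replication-dependent histone genes only 11 passed the expression filter in this polyadenylated RNA. None of the 11 held, and 0 had an unadjusted p under 0.05 in edgeR, where HIST1H2BK and HIST1H1C had adjusted p of 0.24 and 0.88.

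In the smooth muscle list 5 of 26 fell and 1 rose: SYNM, an intermediate filament protein, fell by 1.11 ± 0.05 from 42.4 and 41.6 TPM to 23 and 21.3, MKL2 by 0.57 ± 0.09 and the filamins FLNA and FLNC by 0.55 ± 0.08 each, and TPM1 rose by 0.37 ± 0.06. Of those that fell, 2 held with the length trend removed and 1 with the control libraries summed, and FLNC lost its call in the former (-0.23). Of 21 potassium channels 3 fell and 2 rose, KCNC1 by 1.62 ± 0.13 downwards and KCNN2 by 1.14 ± 0.13 upwards among them. KCNJ15 rose by 0.57 ± 0.10 on counts, while its TPM overlapped (8.80 and 6.14 in the control, 7.16 and 8.43 in InsE). Of 25 NF-kB genes REL, NFKBIZ and NFKB1 fell (-1.03, -0.50 and -0.48) and the inhibitor TNFAIP3 rose by 0.63 ± 0.07. HSPB7 fell by 1.52 ± 0.14 and was the 1 held gene of 22 in the heat shock list. That share of 4.55% lay near the 4.84% of all genes that held lower. Of 28 HOX genes HOXA13, HOXD13 and HOXC10 fell (-0.87, -0.67 and -0.58), and with the control libraries summed none held, though all 3 still passed that fit of all libraries. Of 24 imprinted genes DLK1 fell by 3.45 ± 0.39, from 2.15 and 1.34 TPM to 0.15 and 0.14, PLAGL1 fell by 0.68 ± 0.05 and TP73 by 0.80 ± 0.15, and MEG3, which lies in the same imprinted domain as DLK1, rose by 0.40 ± 0.06. Shares lower were 19.2% (smooth muscle), 14.3% (potassium channels), 12% (NF-kB), 10.7% (HOX) and 12.5% (imprinted). Shares higher were 3.85%, 9.52%, 4%, 0% and 4.17% in that order, beside 2.91% of all genes.

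Of 19 genes for CTCF, cohesin and its loading factors SMC1A fell by 0.43 ± 0.05 and no other held. That share of 5.26% lay near the 4.84% of all genes that held lower. Of 17 genes that write or erase DNA methylation TET1 and TET2 fell by 0.79 ± 0.08 and 0.43 ± 0.07 and HELLS rose by 0.56 ± 0.10, and the call of TET2 was lost with the length trend removed. Of 38 lysosome genes CTSK, NPC1 and CTSB fell (-1.10, -0.53 and -0.52) and LAMP1 rose by 0.40 ± 0.06. In the retinoid list RDH10, which makes retinal, rose by 1.09 ± 0.07 from 21.6 and 21.0 TPM to 45.5 and 34.2, and RARRES3 fell by 1.39 ± 0.22, out of 16. SDPR rose by 0.93 ± 0.11 and was the 1 held gene of 8 in the caveolae list. Of 21 glycogen genes PPP1R3B and PHKA1 fell (-1.54 and -0.41), and with the length trend removed none held, though both still passed that fit of all libraries. Shares lower were 11.8% (DNA methylation), 7.9% (lysosome), 6.25% (retinoid) and 9.52% (glycogen). Shares higher were 5.88%, 2.63%, 6.25% and 0%, and 12.5% of the 8 caveolae genes, beside 2.91% of all genes.

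**Figure D4:**
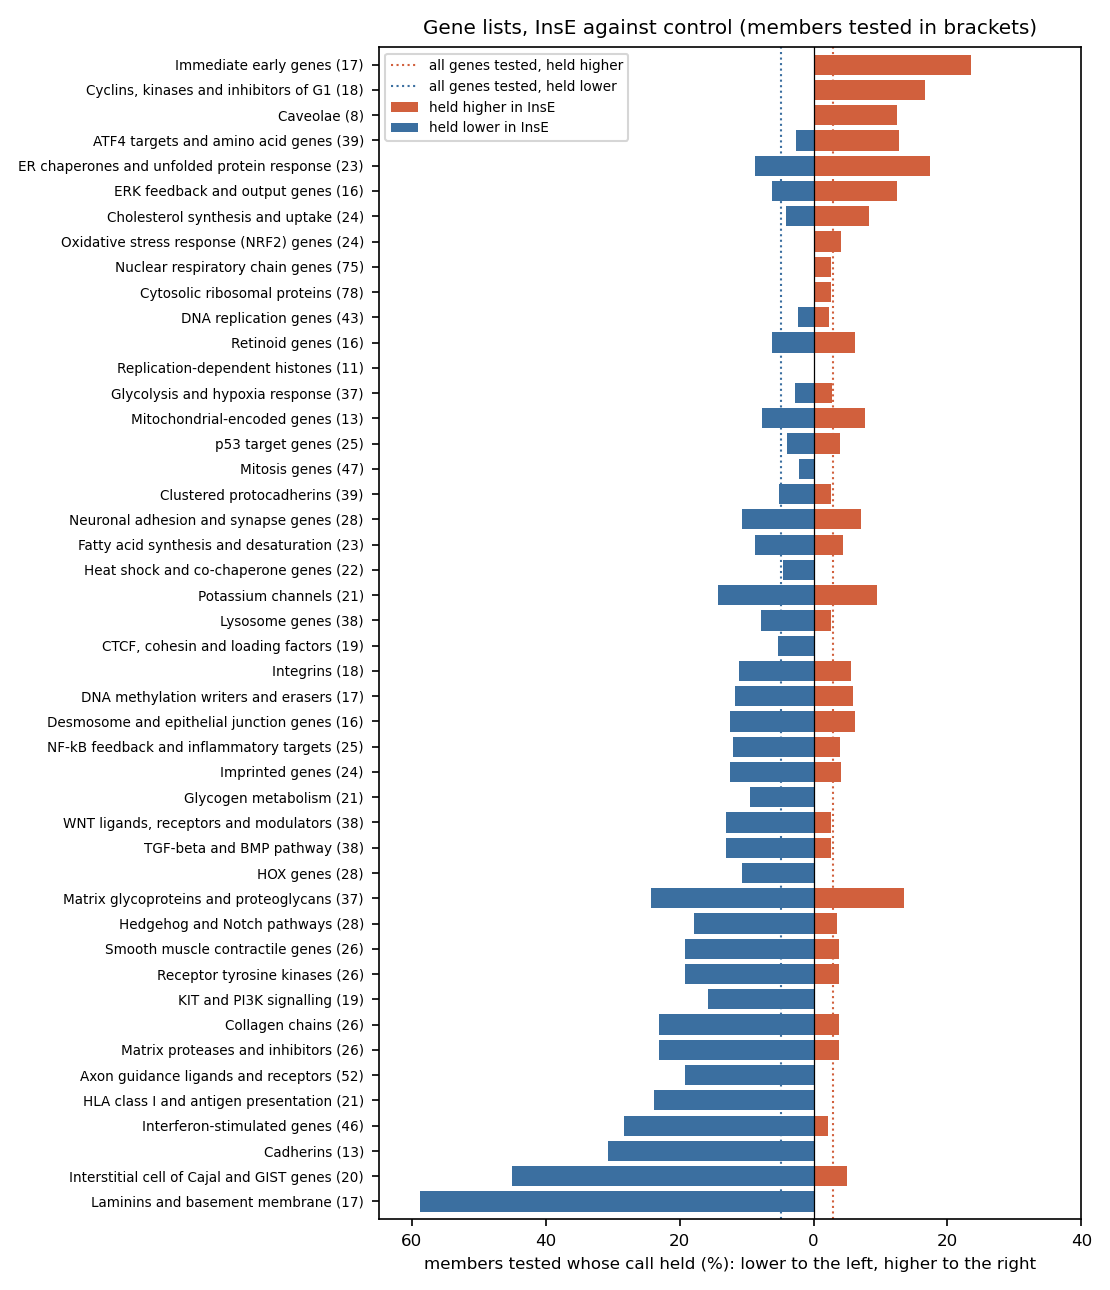
Percent of the tested members of each of 46 gene lists that held higher (right) or lower (left) in InsE than in control, ordered by the difference of both shares. Dotted lines give the same shares over all genes tested, 2.91% and 4.84%. The lists were chosen with earlier results of these data known. Laminins and basement membrane, GIST genes and cadherins lie at the lower end and immediate early genes at the upper end.

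A further question was where InsE stood apart from both the control and the other insulator lines. Of the 1206 held genes 445 (2.86% of all genes tested) also held in the same direction against the mean of InsF, InsG and InsH, 135 of them higher and 310 lower (1.99%), beside 8.63% of genes that held against those lines in either direction. Both comparisons use the same InsE libraries, so they are not independent and part of this overlap follows from the design. With the replicate number as a block 2365 genes held against those lines in place of 1343. MEOX2, a homeobox factor, stood at 4.02 and 4.29 TPM in the control, 10.1 and 11.7 in InsE and a mean of 3.7 in the 6 other libraries, and was higher by 1.65 against the other lines. RGS4, an inhibitor of G protein signalling, stood at 40.6 and 36.0 TPM in the control, 68.4 and 82.7 in InsE and a mean of 37.4 in the others. ACTN2, a muscle actinin, rose by 1.23 ± 0.13 against control and was higher by 1.21 against the other lines. The remaining 7 of the 10 largest were UBE2E2, NAIP, CRYGS, GOLGA6L9, IER2, NPIPB5 and RP11-258C19.5. GOLGA6L9, NPIPB5 and NAIP belong to families of near-identical copies, so their counts are uncertain, and UBE2E2 (0.53) and CRYGS (0.92) did not hold with the length trend removed but passed that fit of all libraries.

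The genes lowest in InsE against both included PRSS35, RP11-435I10.4, TNC, ECM1, SLIT3, GBP2 and TAP1 from the groups above, with WISP1, IGFBP3 and IGF2BP3. WISP1, a secreted matrix protein, had 3.50 and 2.51 TPM in the control, 1.04 and 1.59 in InsE and a mean of 19.8 in the other lines. IGFBP3, which binds insulin-like growth factors, had 1.85 and 2.12 TPM in the control, 1.02 and 0.57 in InsE and a mean of 9.4 in the others. IGF2BP3, an RNA-binding protein, fell by 1.47 ± 0.15 on counts, while its TPM went only from 2.27 and 2.87 to 1.54 and 1.78. For DCN and POSTN the directions differed: both rose against control, yet DCN averaged 51.6 TPM and POSTN 7.9 in the other lines and lay above InsE there. KIT, at a mean of 456 TPM in the other lines, did not hold against them.

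By position, the genes that rose were most frequent on chromosome 13. Of 297 tested genes there 35 rose (11.8%) and 14 fell (4.71%), at a median of 0.18, the highest of the autosomes and X. The median was 0.22 in InsE replicate 1 and 0.13 in replicate 2, and 0.14 to 0.29 in the libraries of the other lines, so InsE did not stand apart from them (-0.03). SPRY2, SLITRK6, POSTN, DNAJC3 and LAMP1 are among the genes that rose there, and COL4A1 and COL4A2 among those that fell. In bins of 10 Mb with at least 20 tested genes, the highest medians were those of chromosome 21 from 0 to 10 Mb (0.50, 33 genes, 1 rose), chromosome 4 from 170 to 180 Mb (0.48, 20 genes, 5 rose) and chromosome 13 from 110 to 120 Mb (0.42, 36 genes, 12 rose and 2 fell). On the TPM scale the bin of chromosome 21 had a median of 0.16. The lowest were 3 bins of chromosome 2, from 0 to 10 Mb (-0.25, 7 of 32 fell), from 20 to 30 Mb (-0.23, 16 of 76 fell) and from 40 to 50 Mb (-0.21, 5 of 39 fell). In these 3 bins no gene held higher, and 2 genes passed upwards in the fit of all libraries. In the libraries of InsF, InsG and InsH the bin medians were 0.34 to 0.53 on chromosome 4 and 0.39 to 0.46 on chromosome 13. They were -0.04 to 0.18 on chromosome 21. For the chromosome 2 bins, in the same order, they were -0.17 to -0.08, -0.16 to -0.11 and -0.195 to -0.01. The chromosome 4, 13 and 2 bins thus lay on the same side of the control in all 4 insulator lines.

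**Figure D5:**
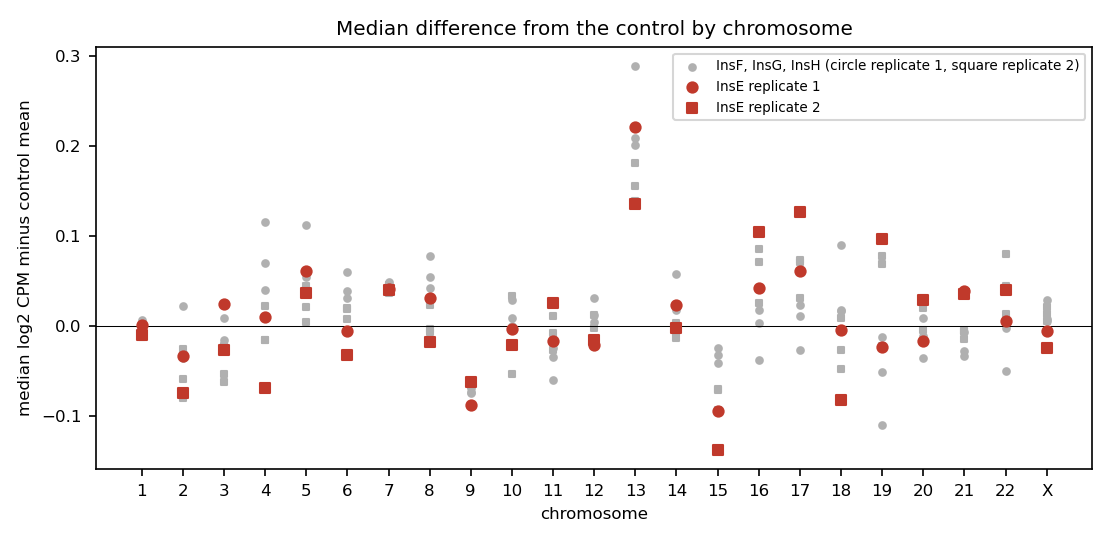
Median difference in log2 CPM from the control mean for the tested genes of each chromosome, per library of InsE (red) and of InsF, InsG and InsH (grey). Chromosome 13 lies highest in both InsE libraries and in the grey points, and chromosome 15 is lowest in InsE.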

How the data were processed

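Polyadenylated RNA of GIST-T1 lines was sequenced, 2 libraries per group and 5 groups. Per library the authors deposited expected counts (RSEM estimates per gene, not normalised) and TPM values, which sum to a fixed total and keep no depth. The tools named are RSEM 1.3.2, STAR 2.5.3 and DESeq2 1.38.3 with the build hg38, per the submitters' processing notes. Neither the annotation release nor the strand setting is stated in the labels or notes used, so reads shared by genes that overlap on opposite strands may be counted for either. A series table with 10 value columns was not used, because the names of 8 of them match no label and the library files hold the same unit.

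Expected counts were rounded and all 10 libraries fitted with edgeR 4.0.16 (quasi-likelihood, robust, TMM, R 4.3.3) after its expression filter (minimum count of 10), with 5 residual degrees of freedom, two-sided tests and Benjamini-Hochberg adjustment over 15554 genes at 0.05. Held calls passed each of 4 fits without 1 control or InsE library (8 fits for InsE against the other lines). With summed control libraries, calls against control were asked to pass only the fits without 1 InsE library. TPM gives levels per library. Positions are those of GENCODE 29, matched by identifier for 58261 of 58381 rows. Promoters came from RefSeq. The functions were tested on simulated counts. Some genes counted in the lists are not reported here by name.

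The comparison, 46 gene lists and 7 marker lists were chosen with earlier results of these data known. Genes were named by a rule from those beyond 2 Mb of FGF3 that held: the 10 largest rises and falls of protein-coding genes with a mean log2 CPM of at least 1 and groups that do not overlap, up to 4 per direction and list (where none held, the 2 with the highest control TPM), and the 10 per direction that differed most from the other lines as well. ANO1, CCND1, marker genes and a few others outside the rule were named after their values were seen. Alternatives were other scalings, filters, tests (DESeq2 1.42.0, limma 3.58.1 on TPM with pseudocounts of 1 and 0.1), only the groups compared, a replicate block, and, chosen after seeing the data, summed control libraries and removal of the length trend (a smooth curve of log2 CPM on log2 length per library, used as an offset).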

Additional observations from a re-analysis of the deposited data

Results flagged for a closer look

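InsE differed from the mean of InsF, InsG and InsH, in a contrast without a control term, in 1343 genes that held in each fit without 1 library. The named genes with at least a 2-fold difference are given here by group, as log2 of InsE minus the other lines. Among matrix and protease genes, DCN lay at -3.90, WISP1 at -3.76, TNC at -3.59, ECM1 at -3.42 and COL5A3 at -3.37. COL5A2 lay at -1.68, COL4A1 at -1.17, POSTN at -1.03, MMP1 at -1.70, TIMP1 at -1.39 and PRSS35 at -5.03. DCN, POSTN and COL5A2, and PSTPIP1 below, rose against control, so InsE lay between the control and the other lines.

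Among interferon and antigen presentation genes, GBP2 lay at -2.68, PSMB9 at -2.49, TAP1 at -2.43, HLA-C at -2.18 and HLA-B at -1.96. GBP3 lay at -1.80, NLRC5 at -1.54 and OAS3 at -1.18. Among signalling, guidance and growth factor genes, IGFBP3 lay at -3.24, IGF2BP3 at -3.12, SLIT3 at -2.86, DKK2 at -1.75 and EPHB1 at -1.67. SOCS2 lay at -1.59, SEMA3D at -1.37, NOTCH2 at -1.37, FZD6 at -1.26, DKK4 at -1.09 and KITLG at -1.08. Others that lay lower were RP11-435I10.4 (-5.0), DLK1 (-3.33), DSP (-1.96), RARRES3 (-1.18), NTM (-1.17), KCNN3 (-1.15) and PSTPIP1 (-1.07).

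Higher in InsE than in the other lines were MEOX2 (1.65), UBE2E2 (1.62), NAIP (1.59), CRYGS (1.55), GOLGA6L9 (1.28) and RGS4 (1.25). IER2 (1.22), ACTN2 (1.21), NPIPB5 (1.15), RP11-258C19.5 (1.08) and the ERK feedback gene SPRY2 (1.03) were also higher.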

How the results depend on the processing

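The 3611 genes called against control became 1791 and 1804 with limma on log2(TPM + 1) and log2(TPM + 0.1), 1672 with the control libraries summed and 1405 to 2654 in the fits without 1 library. The 1206 held calls became 247, 261 and 551 in the first 3 of these settings. The 1343 held calls against the other lines became 557, 596 and 857 there, 827 with DESeq2 and 870 with only the groups compared. With summed controls there were fewer samples, and otherwise the cause was not tested. Other scalings and filters, DESeq2, only the groups compared and removal of the length trend kept the remaining counts within 1.5 times. With the replicate number as a block, counts were 5935 called and 2752 held against control (1200 of the 1206 among them) and 2365 held against the other lines. Replicate differences correlated at 0.588 to 0.684 among the 4 insulator lines and at -0.0114 to 0.0819 with the control, and the labels do not say what a number marks. Of 178 named genes that held, 35 and 33 lost the call of the full fit with limma on TPM and 8 with the length trend removed. No full-fit call was lost in the other settings that gave a value, and no direction reversed. By the stricter rule of holding, 131 of the 178 held again with the length trend removed and 102 with the control libraries summed. With the control libraries summed that rule asked only for the fits without 1 InsE library. InsE replicate 2, at 9.4 M counts, limits low genes most.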
